A study of Drosophila melanogaster with 8 samples.

Results

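Genes whose outermost poly(A) sites lie 1000 bp or more apart were followed in 3' end sequencing of Drosophila melanogaster testes. A listed entry is a gene with one of its transcripts and the 30 bp windows counted for it. An entry was taken when the midpoints of its first and last window lay 1000 bp or more apart, a choice that uses positions and no read counts. The rule took 76 of 529 entries (14.4%), each a different gene; 72 have 2 sites and 4 have 3 sites.

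All flies were bam mutant males that carried nosGal4 on the X chromosome and bam86,bamGal4/bam1 on the third chromosome. Controls (nosGal4/Y;+/+;bam86,bamGal4/bam1) had no UAS transgene. The other groups carried 1 copy of UAS>cbc-V5 (called cbc), of UAS>PCF11-RF-HA (PCF11), or of UAS>cbc-V5+PCF11-RF-HA (both) on the second chromosome. Each of the 4 groups has 2 libraries of about 150 testis pairs. Crosses were kept for 3 days at 25 degrees, and the progeny were raised at 29 degrees. The nos and bam drivers act in germ cells, so in these males the transgenes are driven in the germ cells that accumulate without bam. The libraries were made from whole testes, which also hold somatic cells. The labels do not say whether the libraries of a group came from separate crosses, so p-values measure the spread between libraries, which may be technical.

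Most genes can end their transcripts at more than 1 poly(A) site. Cleavage at a proximal site, the one nearer the coding region, gives a shorter 3' UTR, and cleavage at a distal site keeps the stretch between the sites, with any binding sites for RNA-binding proteins and microRNAs that it holds. Cbc is the fly Clp1 and PCF11 the fly Pcf11, subunits of a cleavage factor that acts on nascent transcripts. The genes described here are those whose outermost listed sites lie farthest apart in the genome. How much of the stretch between the sites stays in the transcript was not checked.

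The median distance between the outermost sites was 1309.5 bp, against 440 bp over all entries. Of the 76 genes, 45 had sites 1000 to under 1500 bp apart, 19 had them 1500 to under 2000 bp apart and 12 had them 2000 bp or more apart. The widest were Fs(2)Ket (importin beta, 11957 bp), Adar (an RNA-editing adenosine deaminase, 4067 bp), NetB (a netrin guidance cue, 3913 bp) and mahe (a DEAD-box RNA helicase, 3561 bp). At the threshold, hppy (a MAP4K-family kinase, 1000 bp) and CG8298 (1005 bp) were just inside, and enc (998 bp) and clu (987 bp) just outside. Control proximal shares were 0.262% ± 0.37 for hppy and 38.9% ± 1.6 for CG8298, against 67.5% ± 11.4 for enc and 22.8% ± 2.11 for clu (SD, n = 2 for each).

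The proximal window lay in an annotated 3' UTR in 76 of 76 genes. The distal window lay in a 3' UTR in 68 genes, downstream of the annotated gene in 6 and in an intron in 2. Windows of 20 genes (26.3%, against 30.1% of all entries) overlapped another annotated gene, 10 of them (13.2%, against 23.3%) on the opposite strand. Reads were counted without strand, so reads of overlapping genes cannot be told apart. Afti and PR-Set7 face each other, and the distal window of each lies in the other gene. The genes sat on chromosome arms 2L (12), 2R (12), 3L (16), 3R (19), 4 (2) and X (15).

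Listed reads came to between 238162 and 333675 per library, and reads of the 76 genes to between 33116 and 51611. Replicates were not copies of each other, with a chi-square of 5.88 to 12.9 per degree of freedom between the 2 libraries of a group. Of the genes chosen as germ line markers, 1 of 11 was in the table (chinmo), and of cyst and hub cell markers 1 of 14 (zfh1). Spermatocyte and spermatid markers numbered 1 of 23 (twe), and sheath, muscle and fat body markers 0 of 13. Whether chinmo marks germ cells alone in the testis was not checked. The tissue label could therefore hardly be checked from the listed genes, and the makeup of the samples was not tested. Neither cbc nor Pcf11 is a listed gene, so overexpression itself could not be checked.

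In the controls these genes used the proximal site more than the table as a whole did. The proximal share is the percent of an entry's reads that fall at its most proximal site. Its median over the 74 genes with reads in both controls was 28%, against 19.3% over all entries. It was over 50% in 21 genes (28.4%, against 15.1% of all entries) and under 10% in another 21 (28.4%, against 34.2%). Of the 12 genes with sites 2000 bp or more apart, 7 were over 50%, against 11 of 45 at 1000 to under 1500 bp and 3 of 17 with reads at 1500 to under 2000 bp. These are descriptions of the 2 control libraries, with no test.

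**Figure D1:**
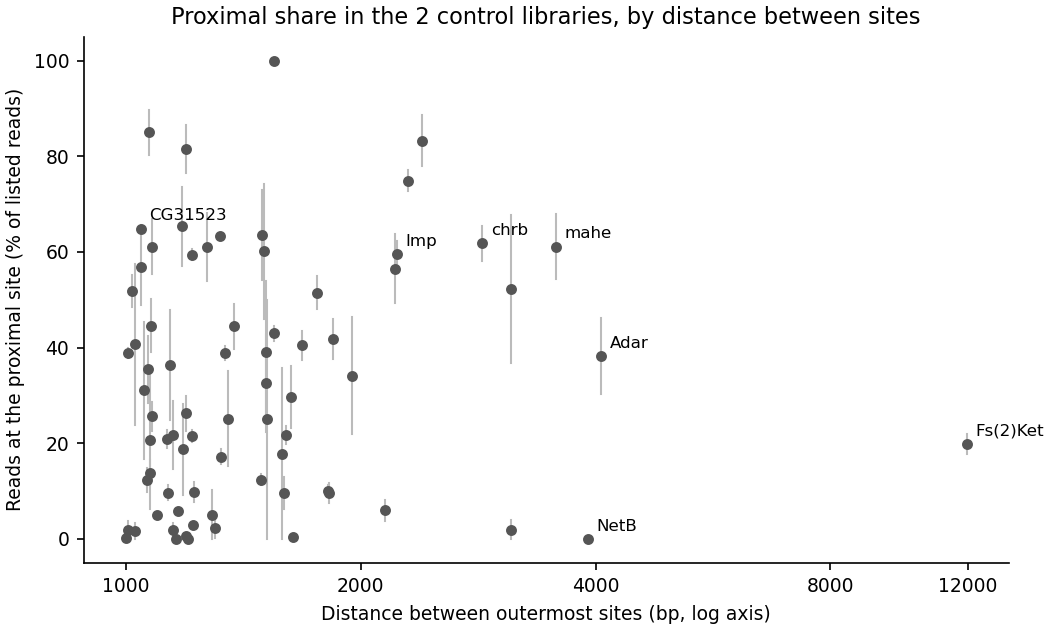
Proximal share in the controls (y axis, percent of the gene's listed reads) against the distance between outermost sites (x axis, bp, log axis) for the 74 genes with reads in both controls; points are means and grey lines join the 2 control libraries. Shares run from 0% to 100%, and mahe, chrb and Imp, all over 2000 bp, lie near 60% (61.1%, 61.8% and 59.5%).

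Few of these genes passed the test for a change in the choice of site. With 2 libraries per group, a gene that did not pass may still have changed. The authors' own test, given further below, called more of them. With cbc 4 of the 73 genes tested passed the test (5.48%, against 7.56% of all 516 entries tested), 3 proximal (5.62% of all entries) and 1 distal (1.94%). With PCF11 5 passed (6.85%, against 10.5%), 4 proximal (9.11%) and 1 distal (1.36%). With both 5 passed (6.85%, against 10.3%), 3 proximal (7.56%) and 2 distal (2.71%). The test was edgeR's quasi-likelihood test of the log2 odds ratio of proximal usage, with Benjamini-Hochberg adjustment over 516 entries and a threshold of 0.05. The 3 comparisons share their control libraries. Without single libraries the counts went as low as 1 in each comparison (without either cbc library, without PCF11 replicate 1, and without both replicate 2), and the 1 left was CG31523.

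Median shifts, taken over all tested entries of a distance class, differed between classes. With cbc the median log2 odds ratio came to 0.32 in entries with sites under 200 bp apart, 0.18 from 200 to under 500 bp, 0.02 from 500 to under 1000 bp and -0.22 at 1000 bp or more. With PCF11 the medians were 0.63, 0.48, 0.01 and 0.26, and with both they were 0.48, 0.40, -0.22 and -0.11, in the same order of distance. Medians over all entries were 0.14, 0.36 and 0.27. The median therefore lay below that of all entries in each comparison, and on the distal side of 0 with cbc and with both. The widely spaced genes also had the least precise estimates, with a median SE of 0.77 with cbc against 0.66 over all entries. No test of the classes against each other was made.

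**Figure D2:**
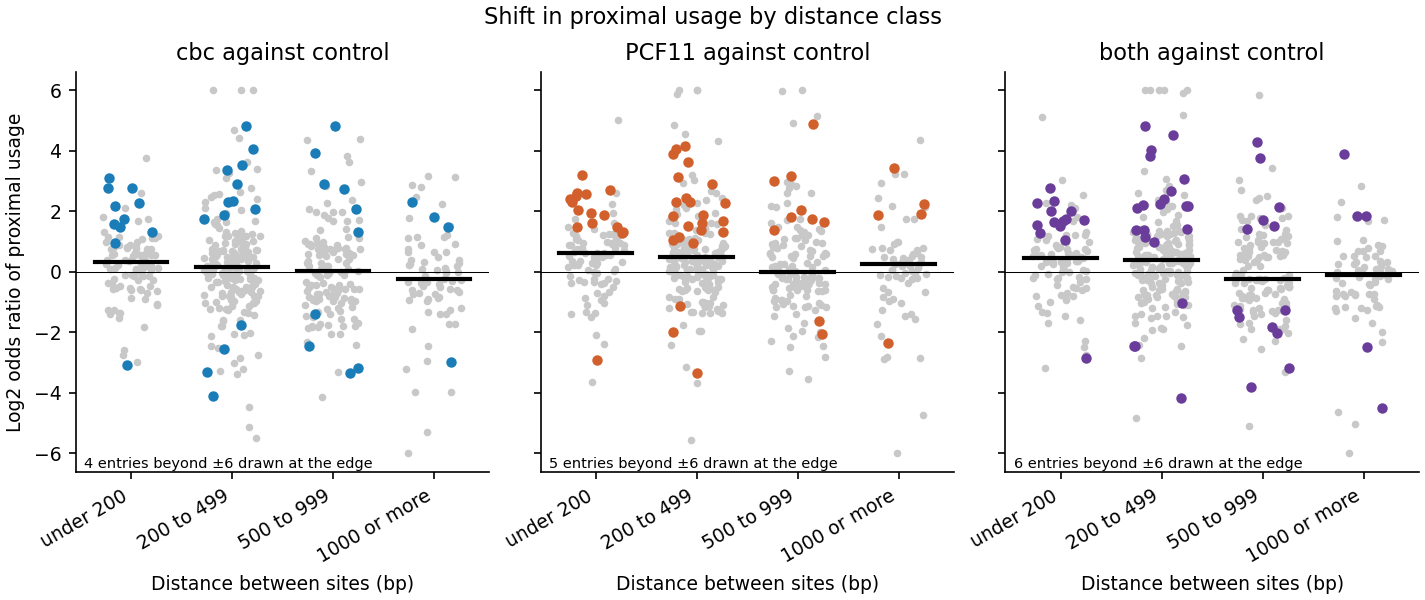
Log2 odds ratio of proximal usage against control (y axis) by distance between outermost sites (x axis) in the 3 comparisons; each point is an entry, coloured where its adjusted p was under 0.05, and black bars are medians. At 1000 bp or more 4, 5 and 5 of 73 points are coloured, and the medians are -0.22, 0.26 and -0.11.

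Genes whose shares did not overlap those of the controls were counted as well. With cbc the shares of both libraries lay above both controls in 16 of 73 genes (28.7% of all entries did) and below both in 16 (20.7% did). With PCF11 the counts were 25 above (36.8%) and 13 below (15.9%), and with both 12 above (32.8%) and 16 below (21.3%).

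CG31523, which belongs to the ELOVL family of fatty acid elongases, had the lowest adjusted p of the 73 genes in each comparison, and its shift went toward the distal site. Its windows lie 1046 bp apart on the minus strand of BDGP6, at chr3R:4466466-4466496 (proximal) and chr3R:4465420-4465450 (distal), both in its 3' UTR. Its proximal share was 65.7% and 64.0% in the control libraries, 19.1% and 18.7% in the cbc libraries, 25.9% and 27.4% in the PCF11 libraries, and 29.2% and 21.0% with both transgenes. All 6 overexpression libraries lay far below both controls. The log2 odds ratio was -2.99 ± 0.28 with cbc (SE, edgeR, adjusted p = 7.47e-04), -2.34 ± 0.27 with PCF11 (adjusted p = 0.00254) and -2.48 ± 0.27 with both (adjusted p = 0.00244). The call held without any single library.

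Its sites did not move alike. Distal reads in CPM (counts scaled to the library's listed reads with TMM factors) were 1081 and 908 in the control libraries, 4065 and 3867 in the cbc libraries, 3814 and 3398 in the PCF11 libraries, and 3431 and 5756 with both transgenes. The distal site thus rose in every overexpression library, by log2 2.0 ± 0.22, 1.86 ± 0.22 and 2.21 ± 0.22 (edgeR, adjusted p = 1.61e-06, 4.97e-06 and 6.88e-07). The proximal site fell by 0.99 on the log2 scale with cbc (SE 0.22, adjusted p = 0.00296). Its changes with PCF11 (-0.49 ± 0.22, adjusted p = 0.115) and with both (-0.32 ± 0.21, adjusted p = 0.298) did not pass. Summed reads of the gene rose 1.73-fold with cbc, 1.73-fold with PCF11 and 2.14-fold with both (adjusted p = 0.00364, 0.00371 and 1.68e-04); the PCF11 call was lost without PCF11 replicate 1.

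CG31523 was also the 1 gene of the 73 (1.37%, against 1.74% of all entries, 0.388% in its direction) that passed the interaction test, which asks whether both transgenes together differ from the sum of the single shifts. The shift with both was smaller than that sum by log2 2.85 ± 0.38 (edgeR, adjusted p = 0.0116). Without either cbc library or either PCF11 library the adjusted p was 0.0511 to 0.0984.

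Drep2, which belongs to the family of DNA fragmentation factor-related proteins, shifted toward its proximal site with each transgene. Its windows lie 1681 bp apart on the plus strand at chr2R:9299654-9299684 and chr2R:9301335-9301365, both in the 3' UTR. Its proximal share was 43.6% and 37.4% in the control libraries, 67.4% and 73.8% in the cbc libraries, 70.8% and 72.6% in the PCF11 libraries, and 64.1% and 76.7% with both transgenes. The groups did not overlap: every overexpression library was above 60%. The log2 odds ratios were 1.82 ± 0.41, 1.90 ± 0.41 and 1.84 ± 0.42 (edgeR, adjusted p = 0.0301, 0.0209 and 0.0279).

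Both sites of Drep2 took part with the single transgenes. The distal site fell by 1.02, 1.13 and 1.64 on the log2 scale with cbc, PCF11 and both (edgeR, adjusted p = 0.0109, 0.00611 and 2.81e-04). The proximal site rose by log2 0.78 ± 0.25 with cbc and 0.77 ± 0.25 with PCF11 (adjusted p = 0.0337 and 0.0368), while with both it was 0.24 ± 0.25 (adjusted p = 0.563). Summed reads fell only with both among the 3 comparisons with control, to 0.667-fold (adjusted p = 0.0294). The usage call with cbc was lost without any 1 of its 4 libraries (edgeR, adjusted p 0.0573 to 0.180), with PCF11 in 3 of 4 such fits (0.0485 to 0.116) and with both in 2 of 4 (0.0324 to 0.204). Its proximal site calls were lost in all 4 such fits with cbc and with PCF11, its distal call in 2 of 4 with cbc and 1 of 4 with PCF11, and its summed call with both in 3 of 4 (log2 -0.84 to -0.37).

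In drk, the Grb2-like adaptor that links receptor tyrosine kinases to Ras, the proximal site gained reads and the distal site did not pass. Its windows lie 1216 bp apart on the minus strand, at chr2R:13496438-13496468 and chr2R:13495222-13495252 in the 3' UTR. The share of reads at the proximal site was 22.7% and 20.2% in the control libraries, 47.3% and 38.8% in the cbc libraries, 58.5% and 42.3% in the PCF11 libraries, and 48.4% and 50.7% with both transgenes. All 6 overexpression libraries lay above both controls. The log2 odds ratios were 1.47 ± 0.38, 1.90 ± 0.38 and 1.85 ± 0.37 (edgeR, adjusted p = 0.04998, 0.0145 and 0.0183).

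Proximal drk reads were 542 and 448 in the control libraries, 1226 and 1177 in the cbc libraries, 1760 and 998 in the PCF11 libraries, and 1655 and 1696 with both transgenes (CPM). They rose by log2 1.28 ± 0.26, 1.48 ± 0.27 and 1.76 ± 0.26 (edgeR, adjusted p = 0.00169, 4.81e-04 and 8.09e-05), and each of these calls held without any single library. The distal site changed by -0.17, -0.47 and -0.09 (adjusted p = 0.646, 0.125 and 0.814). The usage call of drk was lost without any 1 of its 4 libraries with cbc, without PCF11 replicate 1, and without control replicate 2 or either library with both.

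In dco, the casein kinase 1 that acts in the circadian clock and in Hedgehog and Hippo signalling, a little-used proximal site gained reads beside a distal site that held most of them. Its windows lie 1219 bp apart on the minus strand, at chr3R:31056408-31056438 and chr3R:31055189-31055219. This site took 2.82% and 3.10% in the control libraries, 10.5% and 16.6% in the cbc libraries, 13.0% and 12.4% in the PCF11 libraries, and 5.39% and 14.1% with both transgenes. The groups did not overlap, but the 2 libraries with both differed widely. The log2 odds ratio was 2.32 ± 0.47 with cbc and 2.25 ± 0.47 with PCF11 (edgeR, adjusted p = 0.0238 and 0.0189), and 1.69 ± 0.48 with both, which did not pass (adjusted p = 0.0594).

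The proximal site of dco itself rose with each transgene, by log2 2.40 ± 0.37, 2.24 ± 0.37 and 1.64 ± 0.37 (edgeR, adjusted p = 8.77e-05, 2.25e-04 and 0.00249). The distal site changed by 0.04, -0.02 and -0.18 (adjusted p = 0.888, 0.949 and 0.449). Summed reads of dco changed by 1.16, 1.1 and 0.951-fold, with no call (adjusted p = 0.274, 0.507 and 0.723). Both usage calls were lost without any 1 of their 4 libraries (adjusted p 0.0533 to 0.168), and the proximal site call with both was lost without control replicate 2 or both replicate 2 (log2 0.82 to 2.17).

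In orb, the CPEB protein that controls translation of germ line mRNAs, the proximal site rose while the distal site fell. Its windows lie 1007 bp apart on the minus strand, at chr3R:23265654-23265684 and chr3R:23264647-23264677 in the 3' UTR. The proximal site took 0.228% and 3.70% in the control libraries, 9.54% and 13.8% in the cbc libraries, 10.7% and 22.7% in the PCF11 libraries, and 23.7% and 18.3% with both transgenes, on 2 of 877 and 41 of 1108 reads in the controls. The controls differed from each other, and all 6 overexpression libraries lay above them. The log2 odds ratio was 3.43 ± 0.89 with PCF11 and 3.9 ± 0.88 with both (edgeR, adjusted p = 0.0420 and 0.0276), and 2.88 ± 0.88 with cbc, which did not pass (adjusted p = 0.0839).

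Distal orb reads were 3343 and 3230 in the control libraries, 1911 and 2089 in the cbc libraries, 1492 and 1200 in the PCF11 libraries, and 1263 and 1128 with both transgenes (CPM). Every overexpression library was lower, and the fall was 0.72, 1.29 and 1.46 on the log2 scale (SE 0.20 each, edgeR, adjusted p = 0.0120, 1.38e-04 and 2.99e-05). The proximal site rose by log2 1.96 ± 0.66, 1.95 ± 0.66 and 2.23 ± 0.65 (adjusted p = 0.0393, 0.0418 and 0.0174), and these calls passed in 2 of 4, 1 of 4 and 2 of 4 left-out fits, which each lack 1 of the 4 libraries compared (log2 1.10 to 5.04, 1.09 to 5.03 and 1.37 to 5.31). The distal call with cbc was lost without either cbc library. Without control replicate 1, which held 2 proximal reads, the log2 odds ratio was 2.31 with PCF11 (no call) and 2.78 with both (still a call). Without control replicate 2 they were 6.31 and 6.77. The usage call was also lost without either PCF11 library and without either library of both.

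zfh1, a zinc finger homeodomain transcription factor that maintains cyst stem cells in the testis, shifted toward the distal site with both. Its windows lie 2148 bp apart on the plus strand, at chr3R:30786851-30786881 and chr3R:30788999-30789029. Its proximal site held 28 of 341 and 19 of 508 reads in the control libraries, 3 of 432 and 14 of 474 in the cbc libraries, 0 of 347 (3 counts, the limit set for a count of 0, would be 0.865%) and 5 of 287 in the PCF11 libraries, and 1 of 444 and 1 of 411 with both transgenes. Every overexpression library was below both controls. The pooled share with both was 0.0423 times that of the controls (95% exact Poisson interval 0.00497 to 0.161, counting error only).

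The log2 odds ratio of zfh1 with both was -4.50 ± 1.19 (edgeR, adjusted p = 0.0458). With cbc it was -1.73 ± 0.90 and with PCF11 -2.87, which did not pass (adjusted p = 0.268 and 0.128). The call with both was lost without any 1 of the 4 libraries compared (adjusted p 0.0503 to 0.207). Summed reads of zfh1 were 1.21, 0.911 and 1.03-fold of control (adjusted p = 0.338, 0.662 and 0.890). The authors' deposited table calls zfh1 distal in each comparison (adjusted p = 0.0301, 0.00782 and 6.83e-04 in the authors' deposited table). As the transgenes are driven in germ cells and zfh1 is a marker of somatic cyst cells, the cells in which its reads arose were not tested. In whole testes, fewer cells of a type and less RNA per cell cannot be told apart.

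**Figure D3:**
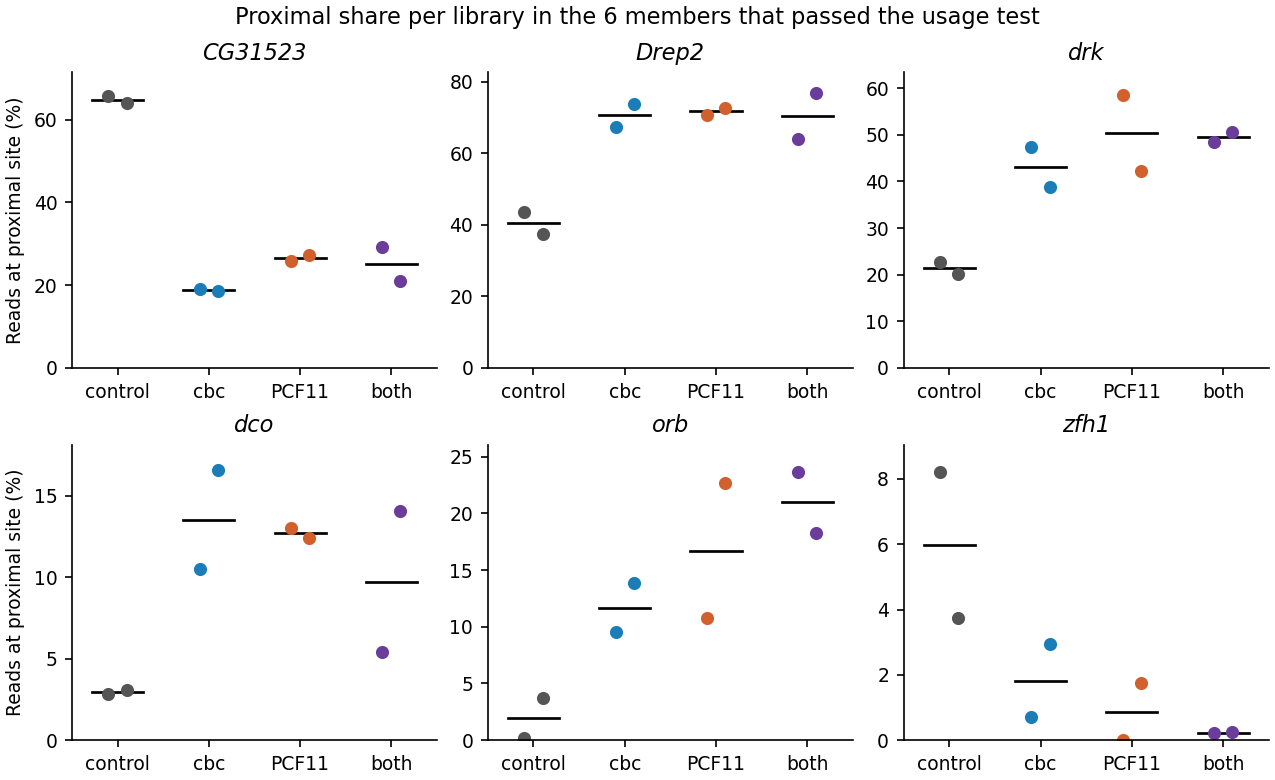
Proximal share (y axis, percent of the gene's listed reads, from 0) in each library (points) with the mean of the 2 libraries (bars), by group, for the 6 genes that passed the usage test in at least 1 comparison with control. CG31523 and zfh1 lie below the controls in every overexpression library, and Drep2, drk, dco and orb above.

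None of the windows of these 6 genes overlaps another annotated gene. Over the 73 genes, edgeR called 0 between overexpression groups (background 0% in each). At an unadjusted p under 0.05 there were 9 for PCF11 against cbc (8.53% of all entries), 4 for both against cbc (6.2%) and 3 for both against PCF11 (3.49%), and DESeq2 also called 0. In CG31523 the largest of these differences was PCF11 against cbc, a log2 odds ratio of 0.64 ± 0.27 (adjusted p = 0.582).

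Some genes came close, and 1 of them is described here after its values were seen. Suv3, a mitochondrial RNA helicase, had a proximal share of 28.6% and 22.7% in the control libraries, 68.8% and 80.0% in the cbc libraries, 74.0% and 70.2% in the PCF11 libraries, and 50.8% and 73.1% with both transgenes. All 6 libraries lay above the controls, on 49 to 175 reads per library. The log2 odds ratios were 3.13 ± 0.82, 2.93 ± 0.81 and 2.31 ± 0.82 (edgeR, adjusted p = 0.0505, 0.0532 and 0.121). The authors' deposited table calls Suv3 proximal in each comparison (adjusted p = 1.75e-05, 1.75e-06 and 0.00147 in the authors' deposited table). Its distal window lies downstream of the gene, in Syt14 on the other strand. Among genes of the lists, ctrip (a HECT ubiquitin ligase) had log2 odds ratios of 0.24, 0.98 and 0.88 (adjusted p = 0.639, 0.0739 and 0.0903).

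Site reads showed which end moved. Of the 63 genes with both outermost sites tested, edgeR called the distal site alone in 13 with cbc (20.6%, against 16.8% of the 471 entries with both sites tested), 12 with PCF11 (19%, against 16.3%) and 16 with both (25.4%, against 22.5%). It called the proximal site alone in 5 (7.94%, against 13.6%), 6 (9.52%, against 14.2%) and 6 (9.52%, against 15.1%). Both sites moved the same way in 3, 2 and 4 genes (2.97%, 2.97% and 5.52% of all entries) and opposite ways in 3, 2 and 1 (1.7%, 2.76% and 2.12%). No test of these shares against each other was made. Proximal sites rose in 7 of 64 with cbc (10.9%, against 12.7% of all proximal sites), in 8 with PCF11 (12.5%, against 17.1%) and in 7 with both (10.9%, against 16.3%). They fell in 4 (background 5.5%), 2 (2.75%) and 4 (6.34%).

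Distal sites rose in 12 of 74 with cbc (16.2%, against 11.9%), 8 with PCF11 (10.8%, against 11.3%) and 13 with both (17.6%, against 15.5%). They fell in 10 (13.5%, against 9.58%), 11 (14.9%, against 10.9%) and 12 (16.2%, against 14.6%). These shares are near the background. Left-out libraries brought the site calls from 33, 29 and 38 of 142 (19.7%, 20.9% and 26.7% of all sites were called) down to 13 (without cbc replicate 2), 10 (without PCF11 replicate 1) and 12 (without both replicate 2).

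**Figure D4:**
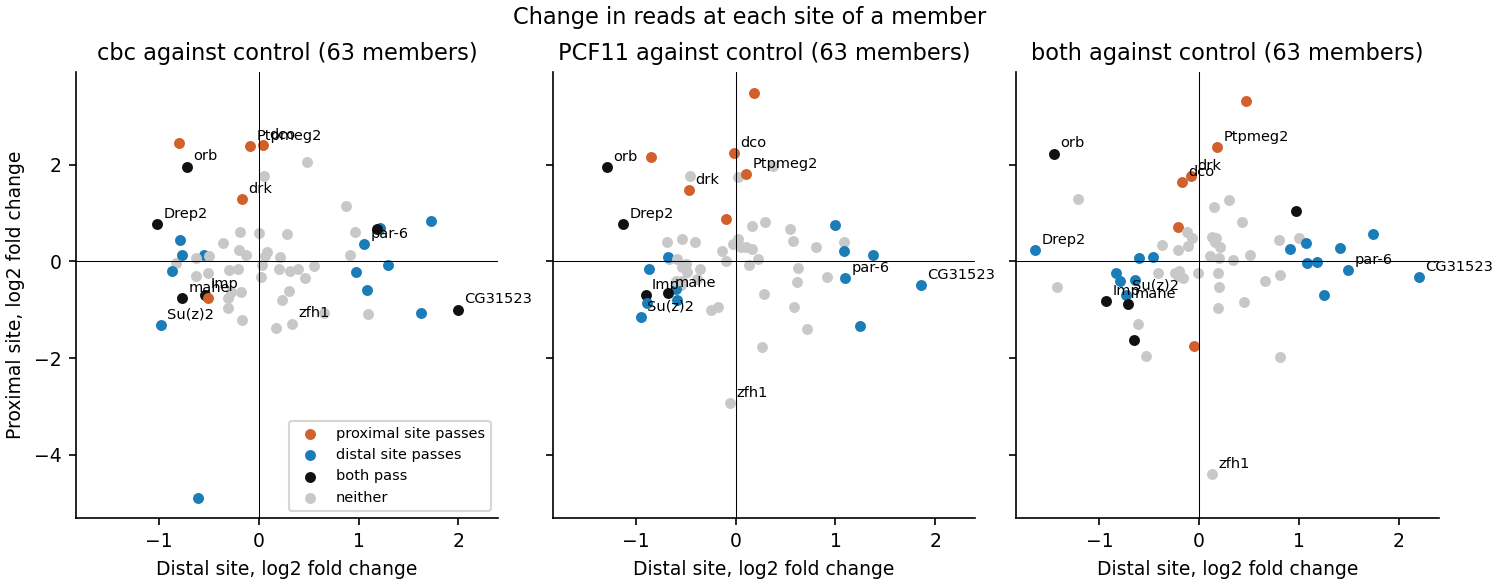
Log2 fold change against control of the proximal site (y axis) and the distal site (x axis) for the 63 genes with both sites tested, 1 panel per comparison; colours mark which sites had an adjusted p under 0.05. CG31523 lies at the right (distal log2 2.0, 1.86 and 2.21), orb at the upper left and mahe and Imp at the lower left.

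Ptpmeg2, a protein tyrosine phosphatase, is an example of a gain at the proximal site alone. Its proximal reads were 111 and 160 in the control libraries, 730 and 695 in the cbc libraries, 451 and 508 in the PCF11 libraries, and 311 and 1107 with both transgenes (CPM). They rose by log2 2.38 ± 0.44, 1.81 ± 0.45 and 2.37 ± 0.44 (edgeR, adjusted p = 6.52e-04, 0.00640 and 6.11e-04, passing in 4 of 4, 1 of 4 and 3 of 4 left-out fits), while its usage test did not pass (adjusted p = 0.116, 0.275 and 0.218). In chrb, an inhibitor of TOR signalling, the distal site alone fell. Distal chrb reads were 6399 and 5383 CPM in the controls and between 3085 and 4320 in the overexpression libraries, falls of 0.87, 0.68 and 0.46 on the log2 scale (adjusted p = 5.63e-04, 0.00414 and 0.0365, passing in 4 of 4, 3 of 4 and 1 of 4 left-out fits).

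Summed reads, which count all listed sites of a gene, changed in more genes. With cbc edgeR called 8 of 74 higher (14.1% of the 516 genes tested were) and 8 lower (10.5%), in all 21.6% against 24.6%. With PCF11 it called 7 higher (12.6%) and 9 lower (9.3%), in all 21.6% against 21.9%. With both it called 14 higher (18.8%) and 11 lower (13.8%), in all 33.8% against 32.6%. These shares are close to the background. The 76 genes together held 16% and 15.5% of listed reads in the controls and 13.2% to 14.0% in the overexpression libraries. Most of that gap was in mahe, chrb and Imp, which held 4.98% and 5.32% in the controls and 3.20% to 3.62% in the others, while the other 73 genes held 11.1% and 10.1% against 9.63% to 10.7%.

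The gene mahe was called lower in each comparison. It stood at 20488 and 25129 in the control libraries, 14401 and 12561 in the cbc libraries, 14643 and 14099 in the PCF11 libraries, and 13923 and 12119 with both transgenes (CPM). It fell to 0.591, 0.630 and 0.571-fold (edgeR, adjusted p = 1.80e-04, 6.19e-04 and 8.50e-05). Both of its sites fell in each comparison, although the distal site passed in 2 of 4, 1 of 4 and 2 of 4 fits that left out a library (log2 -0.31, -0.22 and -0.25 without control replicate 2). Its proximal share was 61.1% ± 9.74 in the controls and 60.8% ± 1.43, 60.9% ± 5.96 and 57.5% ± 1.79 with cbc, PCF11 and both (SD, n = 2).

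Imp, which binds mRNAs and in the testis niche stabilises upd mRNA, stood at 13306 and 13094 in the control libraries, 9078 and 8020 in the cbc libraries, 7030 and 8335 in the PCF11 libraries, and 7362 and 7147 with both transgenes (CPM). No overexpression library reached the controls. It fell to 0.648, 0.582 and 0.550-fold (edgeR, adjusted p = 0.00109, 2.20e-04 and 6.30e-05), again at both sites, of which the distal one passed in 1 of 4 left-out fits with cbc and the proximal one in 3 of 4 with cbc and with PCF11. orb fell to 0.676, 0.481 and 0.453-fold (adjusted p = 0.0210, 2.92e-04 and 8.97e-05). The calls of mahe and Imp held without any single library, and those of orb did so with PCF11 and with both; the orb call with cbc passed in 1 of 4 such fits.

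Su(z)2, a Polycomb group protein, was at 1627 and 1426 CPM in the controls and between 732 and 1057 in the other libraries, or 0.496, 0.511 and 0.602-fold (edgeR, adjusted p = 0.00349, 0.00520 and 0.0203). The Su(z)2 call was lost without PCF11 replicate 1 and, with both, without control replicate 1 or both replicate 2. PR-Set7, the histone H4 lysine methyltransferase, fell to 0.706, 0.606 and 0.60-fold (adjusted p = 0.0419, 0.00611 and 0.00395), and its distal window lies in Afti on the other strand. Its call passed in 1 of 4, 2 of 4 and 4 of 4 left-out fits, and without control replicate 1 its log2 change was -0.26 with cbc. chinmo, a BTB zinc finger transcription factor, fell to 0.654-fold with PCF11 and 0.604-fold with both (adjusted p = 0.0128 and 0.00308), while with cbc it was 0.774-fold (adjusted p = 0.116). The chinmo call with PCF11 was lost without control replicate 2 (log2 -0.37) or PCF11 replicate 1. Usp10, a ubiquitin protease, fell to 0.640, 0.540 and 0.681-fold (adjusted p = 0.0198, 0.00286 and 0.0344), and its calls passed in 1 of 4, 3 of 4 and 2 of 4 left-out fits, with a log2 change as small as -0.30 with both.

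Other falls passed in 1 comparison each among the 3 with control. sina, a ubiquitin ligase, fell to 0.634-fold with cbc (edgeR, adjusted p = 0.0182), and both of its windows overlap Rh4; the call was lost without control replicate 1 or cbc replicate 1. chrb fell to 0.749-fold with cbc (adjusted p = 0.00740), a call lost without either cbc library. Fs(2)Ket fell to 0.675-fold with PCF11 (adjusted p = 0.0103), a call lost without control replicate 2 or PCF11 replicate 1 (log2 -0.39 without the latter). CG11873 fell to 0.549-fold with both, a call lost without any 1 of the 4 libraries compared (adjusted p 0.0515 to 0.254).

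The largest rise in each comparison was that of Calx, a sodium-calcium exchanger. It stood at 57.3 and 115 in the control libraries, 295 and 245 in the cbc libraries, 255 and 277 in the PCF11 libraries, and 321 and 466 with both transgenes (CPM). Every overexpression library was above both controls, and the gene rose 3.08, 3.03 and 4.48-fold (edgeR, adjusted p = 0.0158, 0.0206 and 0.00204). The rise was at its distal site (log2 1.58, 1.52 and 2.14), and its proximal site had no reads in either control library (0 of 15 and 0 of 38). Leaving out 1 library, the call passed in 2 of 4 fits with cbc, 1 of 4 with PCF11 and 4 of 4 with both.

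par-6, which acts with aPKC in cell polarity, stood at 787 and 702 in the control libraries, 1358 and 1684 in the cbc libraries, 1512 and 1573 in the PCF11 libraries, and 2192 and 1853 with both transgenes (CPM). Its rises of 2.04, 2.07 and 2.72-fold (edgeR, adjusted p = 0.00105, 9.57e-04 and 5.14e-05) held without any single library. They were at the distal site (log2 1.06, 1.10 and 1.49), which held over 90% of its reads in every library. toc, a microtubule-associated protein, rose 2.85, 2.15 and 2.81-fold (adjusted p = 0.00141, 0.0152 and 0.00143), at its distal site (log2 1.72, 1.38 and 1.75). The toc call with PCF11 passed in 1 of 4 fits that left out a library, and its other summed calls in 4 of 4, while its distal site passed in 3 of 4, 1 of 4 and 2 of 4.

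Liprin-alpha, a scaffold protein of synapses, rose 2.47-fold with cbc and 2.10-fold with both (edgeR, adjusted p = 0.00502 and 0.0140), while with PCF11 it was 1.23-fold (adjusted p = 0.526). Its call was lost without cbc replicate 1 and, with both, without control replicate 1 or both replicate 2 (log2 0.59 to 1.43 over the 4 fits). Ptpmeg2 rose 2.12-fold with cbc and 2.25-fold with both (adjusted p = 0.0417 and 0.0236); without control replicate 1 its log2 change was 0.55 and 0.63, with no call, and it passed in 1 of 4 and 2 of 4 such fits. CG43954 rose 1.89, 1.81 and 2.01-fold (adjusted p = 0.00767, 0.0142 and 0.00353), and its windows overlap Lasp; it passed in 2 of 4, 2 of 4 and 4 of 4 left-out fits. Tob, an antiproliferative protein that recruits deadenylases, rose 2.28-fold with both (adjusted p = 0.0128) and passed in 3 of 4 left-out fits. The gene heix, a UbiA-family prenyltransferase, rose 1.76-fold with PCF11 (adjusted p = 0.0218) and passed in 1 of 4.

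**Figure D5:**
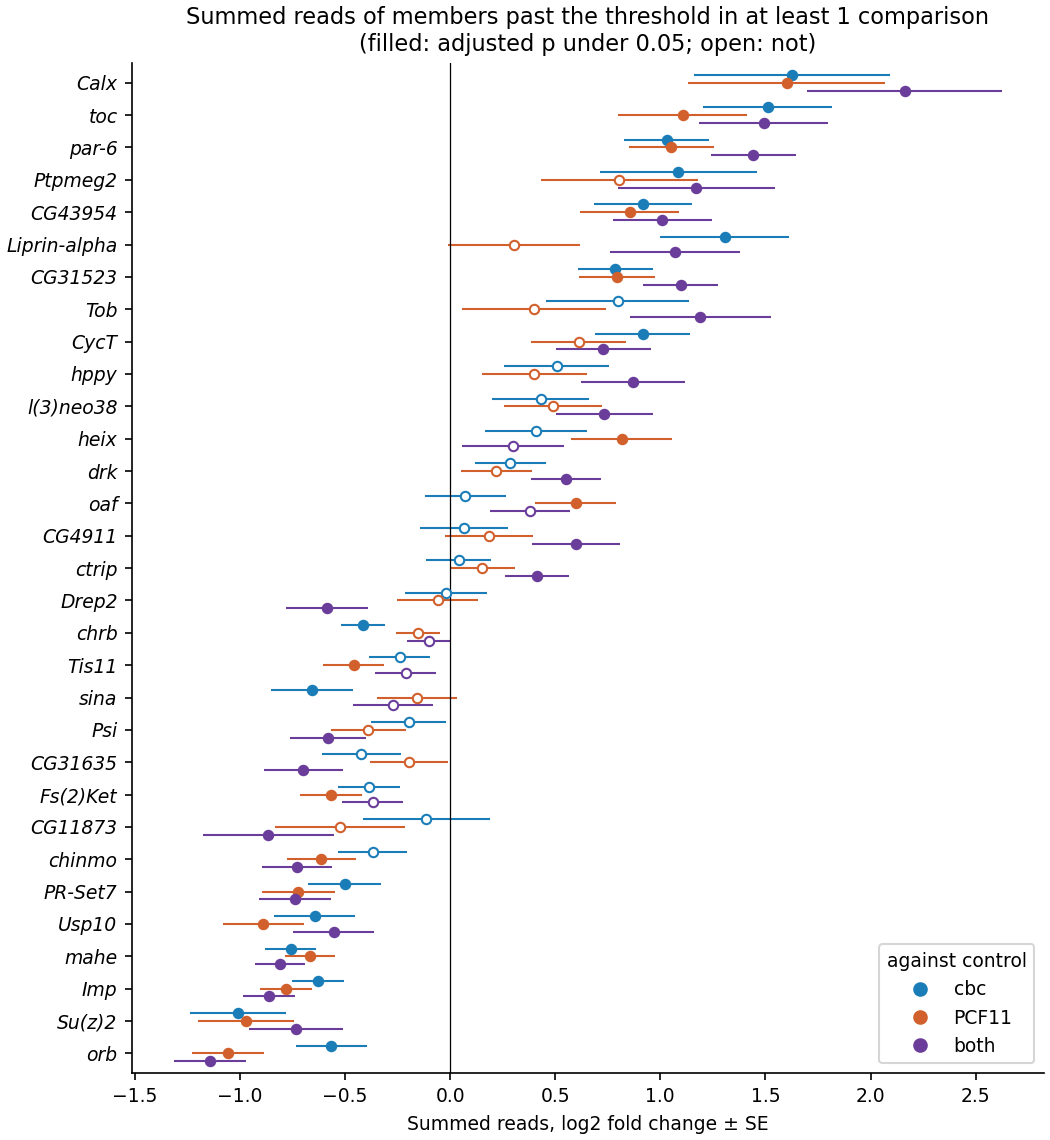
Log2 fold change of summed reads against control with its SE (x axis) for the 31 genes past the threshold in at least 1 comparison (y axis, ordered by their mean change); colours are the comparisons, and filled points had an adjusted p under 0.05. Calx is at the top and orb at the bottom.

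Over left-out libraries the counts of summed calls went down to 7 without cbc replicate 1, to 5 without PCF11 replicate 1 and to 14 without both replicate 2. Between overexpression groups edgeR called 0 of the 74 genes (0%, 0.388% and 0.194% of all genes for PCF11 against cbc, both against cbc and both against PCF11). At an unadjusted p under 0.05 there were 7 (6.78% of all genes), 12 (13.8%) and 7 (6.2%), and DESeq2 called 0.

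Members of the gene lists were few, and the lists do not hold every gene of a kind. In the list of RNA-binding and translation genes, 4 were tested for usage (Adar, Imp, orb and orb2), of which orb passed with PCF11 and with both. Of the 5 other tested entries of that list, 0, 2 and 1 passed with cbc, PCF11 and both, toward the proximal site. orb2, the other fly CPEB protein, had proximal shares of 40.7% ± 23.9 in the controls and 45.7% ± 16.2, 42.8% ± 0.92 and 40.5% ± 11.4 in the other groups (SD, n = 2), with controls that span the rest and windows that overlap CG43783.

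From the list of kinases, phosphatases and signalling genes, 3 were tested (Akt1, dco and drk). With cbc 2 passed toward the proximal site, with PCF11 2, and with both 1, as given for dco and drk. Of the 9 other tested entries of that list, 1 passed toward the proximal site in each comparison. Over all entries tested, 5.62%, 9.11% and 7.56% did. The kinases and phosphatases hppy, Ptpmeg2, Pdk1, aPKC, Csk and Gprk2 are not on the list, were tested and did not pass. Akt1, the kinase downstream of PI3K, had a proximal share of 83.3% ± 7.48 in the controls and 85.3% ± 2.09, 91.0% ± 0.29 and 85.8% ± 2.81 in the others, with log2 odds ratios of 0.19, 0.99 and 0.25 (edgeR, adjusted p = 0.860, 0.339 and 0.814). From the list of chromatin and transcription genes 4 were tested (Hr39, Pc, chinmo and zfh1), and 1 passed, zfh1 with both. Over all entries tested, 2.71% passed toward the distal site with both. Of the 13 other tested entries of that list, 6, 5 and 4 passed toward the proximal site and 2, 1 and 2 toward the distal site. Su(z)2 and PR-Set7 are not on the list, were tested and did not pass.

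Pc, the chromodomain protein of Polycomb repression, had a proximal share of 35.5% ± 9.96 in the controls and 26.3% ± 1.86, 10.9% ± 2.01 and 19.4% ± 3.52 in the others, which did not pass (edgeR, adjusted p = 0.663, 0.139 and 0.379). Hr39, a nuclear receptor, kept its proximal share under 5% in every library, and its distal site rose by log2 1.62 ± 0.42 with cbc (edgeR, adjusted p = 0.00852), a call lost without cbc replicate 2. Hr39 has 3 sites, and the usage test joins the middle and distal ones, so it cannot see a shift between them. The authors' deposited table calls Hr39 distal in each comparison (adjusted p = 0.00329, 0.0171 and 0.0409 in the authors' deposited table). CycT, the cyclin of the elongation kinase P-TEFb and the 1 listed gene of 18 in the cleavage and polyadenylation list, rose in summed reads 1.89-fold with cbc and 1.66-fold with both (adjusted p = 0.00632 and 0.0210). With PCF11 it was 1.53-fold (adjusted p = 0.0608). Without control replicate 2 the CycT change was log2 0.58 with cbc and 0.39 with both, with no call. Of the ubiquitin and autophagy list ctrip and sina were tested; ctrip is described above, and sina had log2 odds ratios of -0.25, 0.63 and -0.10 (adjusted p = 0.636, 0.233 and 0.855).

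Among the widest genes, Fs(2)Ket used its proximal site for 19.8% ± 2.99 of reads in the controls, against 28.1% ± 0.518 under cbc, 19.2% ± 4.59 under PCF11 and 21.6% ± 1.15 under both (SD, n = 2). The libraries with cbc lay above both controls, but the test did not pass (log2 odds ratio 0.67 ± 0.27, edgeR, adjusted p = 0.162). Its most distal site fell by 0.55 on the log2 scale with cbc and 0.60 with PCF11 (adjusted p = 0.0247 and 0.0145), passing in 1 of 4 and 2 of 4 left-out fits, and that window overlaps Amacr on the other strand. Adar had only 37 to 96 reads per library and log2 odds ratios of -0.40, -0.05 and 0.37 with SEs above 1, and its windows overlap prage. NetB had 9 to 59 reads per library, of which 3 in all were proximal, and was not tested.

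The authors' deposited table gives its own gene-level test for 62 of the 76 genes in each comparison. Of these the authors' deposited table calls 26 with cbc (41.9%, against 47.7% of all genes it lists), 31 with PCF11 (50%, against 52%) and 26 with both (41.9%, against 55%). Shifts toward the proximal site in the authors' deposited table numbered 13, 18 and 11 of these, and shifts toward the distal site 13, 13 and 15. Of all genes called in the authors' deposited table, 119, 158 and 137 went toward the proximal site (59.2%, 71.2% and 58.8%) and 82, 64 and 96 toward the distal site. It calls CG31523 distal in each comparison (adjusted p = 1.22e-09, 1.20e-08 and 7.54e-06 in the authors' deposited table). Some genes described above whose usage test did not pass are called in the authors' deposited table. Examples toward the proximal site are orb with cbc (adjusted p = 0.00224), dco with both (0.0286), Ptpmeg2 with cbc (6.53e-04) and PCF11 (0.00513), and ctrip with PCF11 (0.00366) and both (0.00571). Pc is called distal with PCF11 (4.71e-04) and both (0.00462).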

How the data were processed

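Libraries were QuantSeq forward 3' end libraries, for which the submitters' processing notes name Bowtie, SAMtools and the build dm6/BDGP6, without versions. The authors deposited raw read counts per poly(A) window, made with PolyA-miner per the run log (30 bp windows, a supplied list of 1098 sites, no strand, no molecular identifiers). The supplied list is labelled as bam against spermatocytes. The listed entries are not all genes, and shares of all entries refer to this list alone. The deposited result tables hold an adjusted p-value and a log2 score of distal against proximal usage. Read trimming was not given in the sources used here.

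Control counts were the same in all 3 tables, which were joined into 8 libraries over 1082 sites. Usage was tested with edgeR 4.0.16 (R 4.3.3) as reads at the most proximal site against all more distal sites, with library, site and site-by-genotype terms. Entries needed a mean of 10 reads per library and 5 reads on each side; Hr3, NetB and dpr9 were left out. Summed reads (516 genes, 74 of the 76) and site reads (1015 sites, mean of 5 or more) used edgeR with TMM factors, so changes are relative to the listed genes. SEs were derived from F and are approximate. Intervals are exact; the limit for a count of 0 is 3 counts of the total; both cover counting error only. Summed reads of Cbl include its other entry.

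Scripts were tested on simulated data. Windows were placed with the Ensembl annotation of BDGP6; the gene spans of 76 of 76 genes were identical to those the authors used. Coordinates are as deposited.

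Genes named are those that passed the usage or interaction test, the 6 largest rises and falls of summed reads per comparison, the 4 widest, those nearest the threshold, and members of the gene lists. Others named passed a site test or stand in a count. The genes and lists were chosen with earlier results of these data known. No sequences were read, as no genome sequence was used here. Alternatives were DESeq2 1.42.0, RLE factors, library sizes alone, a replicate block, other read minimums, usage measured at the most distal site, no genes with overlapping windows, fits of the compared groups alone, and each library left out.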

Additional observations from a re-analysis of the deposited data

Results flagged for a closer look

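CG31523 was picked out because the effect of PCF11 differed between flies with and without the cbc transgene. The log2 odds ratio of proximal usage for PCF11 was -2.34 without cbc and 0.51 with it (both against cbc), a difference of 2.85 ± 0.38 (edgeR interaction term, adjusted p = 0.0116). It passed in 4 of 8 fits that each left out 1 library. Shares in all libraries are given with the gene above.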

How the results depend on the processing

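Of the 3 usage counts against control (4, 5 and 5 genes), DESeq2 gave 8 with cbc and 8 with PCF11, and 2 for the interaction in place of 1. Fitting only the libraries compared gave 2, 3 and 3. Leaving out 1 library gave 1 to 4 genes with cbc, 1 to 6 with PCF11, 1 to 7 with both and 0 to 2 for the interaction. For summed reads the ranges were 7 to 18, 5 to 15 and 14 to 20 (16, 16 and 25 with all libraries), and both against cbc gave 1 with no read minimum and 0 to 1 with a library left out. For site reads they were 13 to 28, 10 to 25 and 12 to 30. A fit with 1 library in a group takes that library to vary like the others. Fewer libraries were used in these fits; otherwise the cause was not tested. The labels do not say whether same-numbered libraries were prepared together. Deviations of same-numbered libraries correlated from -0.0516 to 0.0684 on the log odds scale and from -0.118 to 0.155 on the log CPM scale. These correlations cannot decide whether the libraries were paired. With the replicate number as a block the usage count with cbc was 2 (Drep2 and drk lost) and with both it was 6 (zfh1 lost, the other 4 kept and 2 more passing), and the counts of summed reads were 15, 15 and 25. No result changed direction under any alternative run. Depth limits genes such as Adar and NetB, and a share of 25% on 192 reads, the median gene's depth in control replicate 1, has an exact interval of 19.0% to 31.7%.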
